A study of Drosophila melanogaster with 20 samples.

Results

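The tissue difference that remained under EcR knockdown was measured in 4 of the 20 RNA libraries of a Drosophila melanogaster time course, chosen by their labels: 2 of wing and 2 of salivary gland from wandering larvae, at -6 h relative to puparium formation. Both tissues came from animals labelled female of a yw/yw background, called EcRi here. They carried Vg-GAL4 and UAS-Flp with the cassette Tub>>CD2>>GAL4, and on another chromosome UAS-GFP opposite the hairpin UAS-EcR-RNAi[104]. As such cassettes work, the vestigial driver switches on the Flp recombinase, which removes CD2 so that a tubulin promoter drives GAL4, and GAL4 drives GFP and the hairpin against the ecdysone receptor gene EcR. Wings and glands of one genotype thus share the yellow and white background, the driver, GFP and the hairpin, and the comparison holds no library without the hairpin. Whether the recombinase acted in every cell of each tissue is not given by the labels. Wild-type (WT) wing and gland of the same stage, written +/+ at every chromosome, and EcRi wing and gland from timed larvae at -30 h, each with 2 libraries, are given beside it. Each library was pooled from at least 60 dissected wings or glands of animals raised at 25 °C. Whether the 2 libraries of a group stem from different animals is not stated in the labels, and p-values cover no more than the spread of these libraries, which may be technical.

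Ecdysone, the steroid hormone of insect molting, binds a receptor made of EcR and Ultraspiracle (usp), which sits on DNA near its target genes and can repress them without hormone and activate them with it. Its targets include a cascade of transcription factors that in turn act on genes of each tissue. In the wandering larva the salivary gland is a polyploid secretory tissue that no longer divides and fills with glue proteins, while the wing disc is a dividing, patterned epithelium that will form the adult wing.

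Levels are scaled RPM, RPM corrected with TMM factors, where RPM is reads scaled to library size, and are compared only within a gene, since they were not divided by gene length. Differences are wing minus gland in log2(scaled RPM + 1) ± standard error of a limma fit, so negative values are higher in the gland and differences of low genes are understated. A gene is called higher in wing or gland at a Benjamini-Hochberg adjusted p under 0.05 over all genes tested and at least a 2-fold difference. Each gene is given with its replicates in the order of their numbers. A dagger (†) marks a gene whose span overlaps that of another annotated gene. The reads were counted over spans with introns and the use of strand is not given in the sources used here, so reads of such a gene and its partner cannot be told apart. In whole tissue, fewer cells of a type and less RNA per cell cannot be told apart either.

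The target of the hairpin was read in both tissues. EcR† (FBgn0000546, chromosome 2R, 6087873 to 6169087 in BDGP6, the assembly of dm6) stood at 127 and 125 in the EcRi wing libraries and at 247 and 192 in the EcRi gland libraries. Both gland libraries lay above both wing libraries, by less than 2-fold (-0.78 ± 0.14, adjusted p = 0.000456). WT wing held 195 and 161 and WT gland 1316 and 1267, where the tissue difference was -2.86. The EcRi difference minus the WT difference was 2.08 ± 0.20. Reads of the hairpin itself may be counted with EcR. The partner receptor gene usp† showed 44.3 and 45.7 in wing and 59.7 and 51.1 in gland, with no call (-0.29 ± 0.19, adjusted p = 0.254). The coactivator gene tai† was higher in gland (154 and 163 against 587 and 419, -1.64 ± 0.19). It was the only one of 6 receptor and cofactor genes called, and 1 of 6 (16.7%) is near the 16.6% of all genes higher in gland. The white gene w†, carried by many fly transgenes, was read at 411 and 478 in EcRi wing and 613 and 663 in EcRi gland. The yellow gene y† was at 0.037 and 0.0568 in EcRi wing but 22 and 27 in EcRi gland (-4.60 ± 0.68), while WT wing held 0.0644 and 0 and WT gland 0 and 0. Whether these reads come from the yellow locus or from a transgene was not tested. vg, the wing selector gene whose regulatory region starts the driver, stood at 121 and 114 in wing and 1.07 and 4.15 in gland (5.18 ± 0.51).

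Of 10176 genes tested, 3276 (32.2%) differed between EcRi wing and gland, 1584 (15.6%) higher in wing and 1692 (16.6%) higher in gland, with a median difference of 0.00. The 4 libraries held 14998298 to 21274909 reads, within the 14949900 to 22626725 of all 20. The tissue labels matched their markers. All 12 wing disc markers were higher in wing, with a summed level of 2076 and 2048 in the wing libraries against 237 and 283 in the gland libraries. Of 12 gland markers 11 were higher in gland, at a sum of 20018 and 6712 against 495 and 477. The gland libraries also held fat body markers, whose sum was 5833 and 9629 in gland against 219 and 210.2 in wing, with 7 of 11 higher in gland, 2 in wing and none of them at 0 in any of these libraries. Myoblast markers went the other way, 8 of 9 higher in wing and none in gland, at a sum of 473 and 507 against 111 and 121. Tracheal markers summed to 1542 and 1615 in wing and 918 and 901 in gland, muscle markers to 131 and 156 against 187 and 211, and neuronal and glial markers to 158 and 158 against 145 and 148. Members called higher in wing and in gland were 5 and 1 of 7 tracheal (71.4% and 14.3%) and 0 and 3 of 8 muscle markers (0% and 37.5%). For neuronal and glial markers they were 2 and 1 of 8 (25% and 12.5%). Beside these stand 15.6% and 16.6% of all genes, and the neuronal and glial counts, of 8 genes, are near those shares. Blood cell markers summed to 62.8 and 68.2 in wing against 43.8 and 67.9 in gland with lz at 0 in wing, while of 8 tested 5 were higher in gland and 1 in wing. The part of these other tissues in the results below was not tested.

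**Figure D1:**
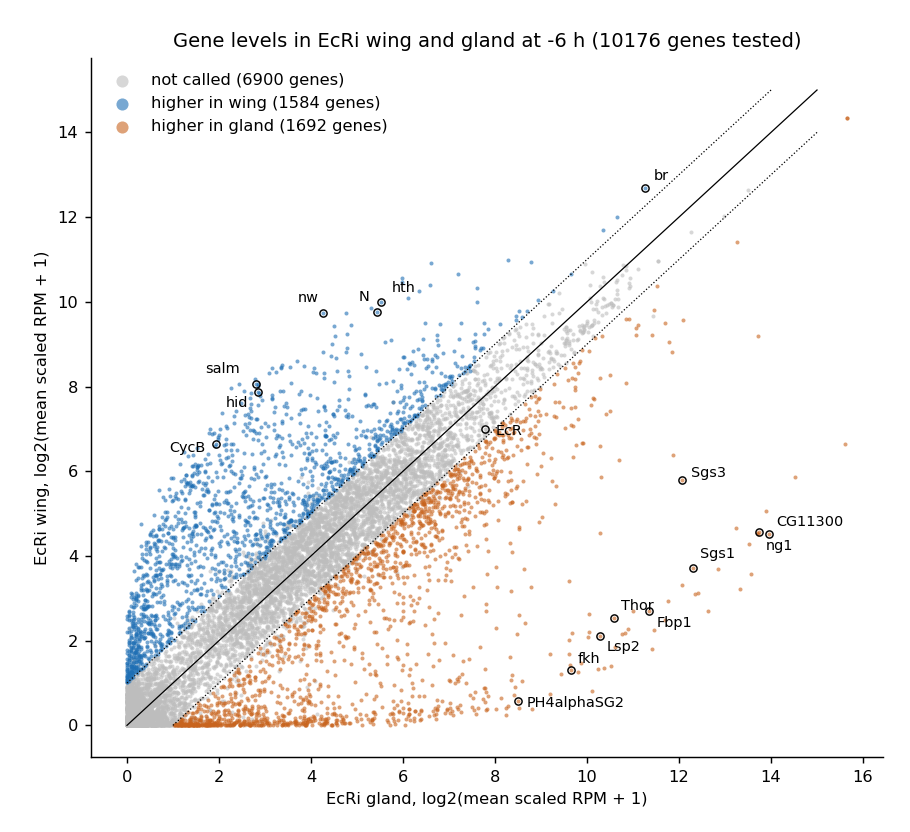
Each point is one of 10176 genes, with the mean level of the 2 EcRi gland libraries on the horizontal axis and of the 2 EcRi wing libraries on the vertical axis, both log2(scaled RPM + 1). Blue marks 1584 genes higher in wing and orange 1692 higher in gland, the solid line is equality and the dotted lines are 2-fold differences; a tail of abundant gland genes runs along the bottom right.

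The same direction was called in WT tissue at the same stage for 1249 of the 1584 wing-high genes, which is 78.9% of the EcRi list and 48.5% of the 2575 wing-high genes of WT (25.3% of genes tested). For gland-high genes it was 1073 of 1692, 63.4% of the EcRi list and 55.1% of the 1948 of WT (19.1%). Few were called in the opposite direction, 31 of the wing-high and 36 of the gland-high genes. At -30 h the EcRi tissues shared 1208 wing-high genes with -6 h, 76.3% of the -6 h list and 78.3% of the 1543 at -30 h (15.2%), and 1305 gland-high genes, 77.1% and 71.2% of 1833 (18%).

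Genes higher in the gland led the comparison in size. Of the 12 with the greatest difference among abundant genes, 9 carry only a systematic name and 3 are ng1, ng2 and ng3, genes of the 3C glue cluster whose RNA is known to mark glands before the main glue genes are on. CG11300 was read at 33.2 and 10.8 in the wing libraries and 19838 and 11964 in the gland libraries (-9.58 ± 0.45, adjusted p = 1.35e-09). CG12310† showed 9.78 and 6.85 against 7831 and 12625 (-10.08 ± 0.74). CG13947 showed 13.5 and 8.21 against 11131 and 13021 (-10.02 ± 0.48). In all 12 genes both gland libraries stood above both wing libraries, which was a condition for choosing them. The other genes without a name, CG14265†, CG42779†, CG13460†, CG10918†, CG18649† and CG14143, had differences between -9.996 for CG14265 and -9.20 for CG14143.

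Glue genes were the best known of the gland-high genes. ng1† stood at 32.3 and 13.3 in wing and 15378 and 11952 in gland (-9.28 ± 0.46, adjusted p = 2.04e-09). ng2† stood at 31 and 13.6 against 14709 and 11656 (-9.24 ± 0.43). Pig1†, a neighbour of the cluster, stood at 5.67 and 1.99 against 2388 and 1418 (-8.69 ± 0.40). Together ng1 to ng4 and Pig1 made up 3.49% and 3.27% of all EcRi gland reads, and 0.0141% and 0.00555% in EcRi wing. The WT gland libraries, in which the later glue genes are on, gave them 0.0717% and 0.0435%. The later genes Sgs1, Sgs3, Sgs4, Sgs5, CG7587, Sgs7 and Sgs8, most of which encode the secreted glue proteins, took 1.60% and 0.469% of reads in EcRi gland and 0.0161% and 0.013% in EcRi wing, against 68.7% and 74.8% in WT gland. Sgs3 was read at 54 and 54.4 in EcRi wing and 7099 and 1471 in EcRi gland (-5.87 ± 1.32, adjusted p = 0.00219). Sgs1 was read at 19 and 5.14 against 7977 and 2107 (-8.53 ± 1.05, adjusted p = 1.22e-05). Sgs7 stood at 2.93 and 3.95 against 569 and 144 (-6.03 ± 1.17, adjusted p = 0.000727). Gland replicate 1 held more of all 7 than replicate 2, by a median of 4.83 times, while fat body markers stood lower in replicate 1 (median ratio 0.615). In each of these genes the lower gland library was still above both wing libraries. The call of CG7587 (-5.43, adjusted p = 0.0102) was lost without a library of the compared groups: adjusted p = 0.102 without EcRi gland replicate 1. All 12 of 12 glue genes were higher in gland, against 16.6% of all genes tested, with a median of -6.01.

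Among 11 tested genes of gland identity and glue modification, 8 were higher in gland and 0 in wing (median -3.76). fkh, the forkhead factor that maintains salivary gland fate (FBgn0000659, chromosome 3R, 28580976 to 28585264), was read at 2.11 and 0.824 in wing and 794 and 809.6 in gland. The 2 gland libraries nearly coincided and lay far above both wing libraries (-8.40 ± 0.35, adjusted p = 4.82e-10). The bHLH partner sage stood at 1.63 and 1.68 against 116 and 81.7 (-5.21 ± 0.36). The zinc finger gene sens stood at 4.04 and 4.94 against 69.6 and 77.1 (-3.76 ± 0.28), with both gland libraries high in both genes. The Hox gene Scr†, which specifies the gland in the embryo, was at 0.889 and 0.937 against 21.8 and 17.6 (-3.43 ± 0.34). CrebA, a regulator of secretory genes, was read in both tissues, 348 and 351 in wing and 949.6 and 765 in gland (-1.28 ± 0.23). The gland prolyl hydroxylase gene PH4alphaSG1 stood at 1.15 and 0.625 in wing and 328 and 366 in gland (-7.54 ± 0.33). Its relative PH4alphaSG2† stood at 0.741 and 0.227 in wing and 359 and 360.1 in gland (-7.95 ± 0.32), so that both enzymes were read almost wholly in gland. Papss, the enzyme that makes the sulphate donor, was at 8.07 and 9.17 in wing and 178 and 189.6 in gland (-4.27 ± 0.24). The glycosyltransferase gene Pgant9†, which in WT gland was read at 1873 and 1730.2, reached 192 and 148 in EcRi gland against 52.4 and 45.4 in EcRi wing, short of the call (-1.77 ± 0.69, adjusted p = 0.0516).

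Secreted proteins pass through the endoplasmic reticulum and the Golgi. In the list of endoplasmic reticulum and Golgi genes 28 of 44 were higher in gland and 0 in wing, with a median of -1.17 beside 0.00 for all genes. Xbp1, the transcription factor of the unfolded protein response, was read at 177 and 185 in wing and 979 and 717 in gland (-2.20 ± 0.15). The cargo receptor genes p24-1 and CHOp24† differed by -2.11 ± 0.16 and -2.003 ± 0.20, and Sec24AB† of the COPII coat by -2.03 ± 0.14. The vacuolar proton pump, which acidifies vesicles, had 16 of 22 subunits higher in gland and 0 in wing (median -2.01). Its accessory subunit gene VhaAC45 showed 35.8 and 40.0 against 315 and 341 (-3.08 ± 0.14). Another subunit gene, VhaPPA1-1, showed 36.9 and 35 against 279 and 219 (-2.75 ± 0.23). Both gland libraries lay above both wing libraries in each of these 6 genes, a condition for naming members of these lists. Of 22 glycosylation enzymes 6 (27.3%, beside 16.6% of all genes) were higher in gland and 2 (9.09%, beside 15.6%) in wing. The gland side was led by the mucin-type glycosyltransferases Pgant6 (19.1 and 18.2 against 360.4 and 281, -4.02 ± 0.21) and Pgant1 (-2.85 ± 0.61). For exocytosis and vesicle trafficking it was 8 (27.6%) and 2 (6.9%) of 29. The Golgi GTPase gene Rab6 (-2.12 ± 0.20) and the Sec1/Munc18 gene Rop (-1.75 ± 0.23) were higher in gland. The synaptic priming gene unc-13† was higher in wing (3.62 ± 0.19). Of 22 autophagy genes 6 (27.3%) were higher in gland and 0 in wing, and the gland count was lower without EcRi wing replicate 1. With limma treat, which tests against 2-fold and was added after the data were seen, the secretory count was 11.

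Further abundant gland genes act in growth control, the cytoskeleton and detoxification. Thor, the inhibitor of cap-dependent translation, was read at 6.07 and 3.61 in wing and 1769 and 1306 in gland (-8.06 ± 0.25, adjusted p = 7.92e-11), and both gland libraries were high. Of 20 genes of actin and muscle-type cytoskeleton 10 were higher in gland and 1 in wing (median -1.26), among them the tropomyosin gene Tm1† (493 and 571 against 3124 and 3965, -2.73 ± 0.14), Arpc1 of the Arp2/3 complex (-2.76 ± 0.18) and the myosin light chain gene sqh (-2.53 ± 0.24). Of 30 glutathione transferases 11 (36.7%) were higher in gland and 5 (16.7%, near the 15.6% of all genes) in wing. GstD2 showed 1 and 0.682 against 242 and 188 (-6.87 ± 0.39), and GstD1 showed 247 and 290.0 against 1725 and 1966 (-2.78 ± 0.33). Among tissue stress genes 6 of 16 (37.5%, beside 16.6% of all genes) were higher in gland and 4 (25%, beside 15.6%) in wing. The wing count was 2 with a pseudocount of 0.25, log2(RPKM + 0.1), voom weights or treat, and the gland count was 3 with treat. The cytokine gene upd3 was at 0.852 and 1.68 in wing and 22.2 and 22.1 in gland (-3.38 ± 0.28), while its relative upd1 was higher in wing, at 9.56 and 9.57 against 0.396 and 0.361 (2.94 ± 0.27). Of 30 antimicrobial and recognition genes 6 (20%, near the 16.6% of all genes) were higher in gland and 1 in wing, with PGRP-LB†, an enzyme that cleaves peptidoglycan, at 0.333 and 0.0852 against 88.9 and 71.2 (-6.07 ± 0.29). The glycerol phosphate dehydrogenase gene Gpdh1† (-3.66 ± 0.25) and the fatty acid synthase gene FASN1 (-2.62 ± 0.34) were also higher in gland. The fat body genes Fbp1, at 5.19 and 5.88 in wing and 1791 and 3453 in gland, and Lsp2†, at 3.59 and 3.01 against 1039 and 1441, stood beside them, both higher in gland replicate 2 than in replicate 1. Their part in the immune, lipid and detoxification genes was not tested.

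**Figure D2:**
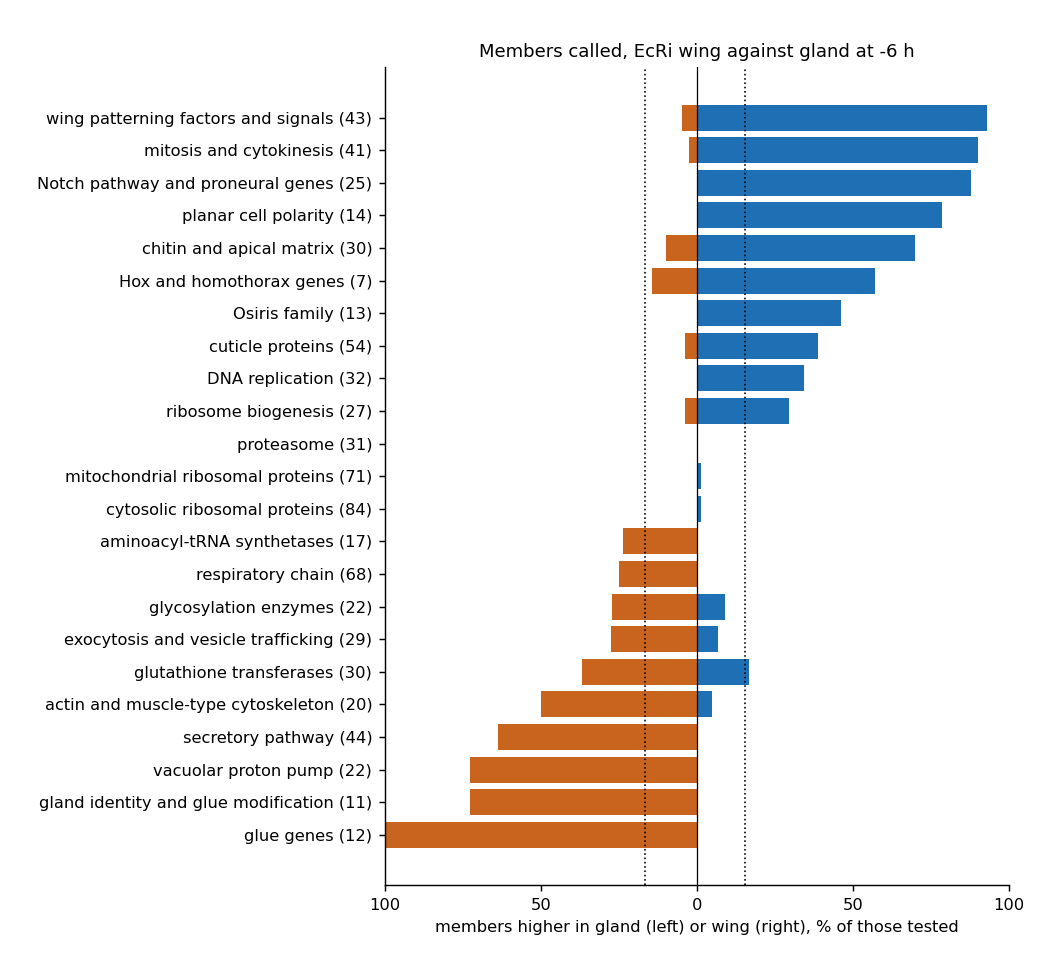
Bars give, for 23 gene lists, the percentage of tested members called higher in EcRi gland (orange, to the left) or higher in EcRi wing (blue, to the right), with the number tested in parentheses. Dotted lines mark 16.6% and 15.6%, the shares over all genes tested; glue genes reach the left edge with all 12 members and wing patterning genes extend farthest to the right with 40 of 43.

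In the wing, genes that pattern the disc stood out in number. Of 43 patterning factors and signals 40 were higher in wing and 2 in gland, with a median of 3.90, a list chosen for wing discs. The 12 abundant genes with the greatest difference included the transcription factor genes salm, salr, bi, tsh, nub and grn. salm, a zinc finger target of Dpp signalling (FBgn0261648, chromosome 2L, 11434311 to 11445614), was read at 257 and 277 in wing and 4.75 and 7.16 in gland (5.29 ± 0.35, adjusted p = 3.59e-08). Its neighbour salr was read at 184 and 147 in wing and 2.15 and 4.21 in gland (5.35 ± 0.34). bi†, the T-box gene also under Dpp, stood at 356 and 331 against 4.69 and 11.2 (5.37 ± 0.34). tsh, a factor of the hinge and trunk, stood at 225 and 246 against 3.9 and 5.84 (5.35 ± 0.31). nub†, the POU factor of the wing field, was at 262 and 273 against 4.52 and 7.88 (5.26 ± 0.56). The GATA factor gene grn was at 125 and 111 against 0.961 and 3.91 (5.26 ± 0.49). nw, a lectin-like extracellular protein needed for wing shape, reached 872 and 833 in wing and 12.4 and 24 in gland (5.54 ± 0.24, adjusted p = 7.17e-10). The protease-like gene mas (5.39 ± 0.24), the membrane serine protease gene Np (5.27 ± 0.55), the chitin-binding gene obst-A (5.29 ± 0.57), CG12964 (5.78 ± 0.47) and CG13731 (5.59 ± 0.60) completed the 12. In all 12 both wing libraries were above both gland libraries, which was a condition for choosing them. The 40 wing-high patterning genes were read in gland at a median of 3.06% and 3.82% of their wing mean in the 2 gland libraries, and 9 of the 40 were higher in gland replicate 1 than in replicate 2.

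Hox genes also differed between the tissues. Antp†, the thoracic Hox gene, was at 83.9 and 81.7 in wing and 1.07 and 2.35 in gland (4.99 ± 0.57). hth†, the homeobox cofactor gene, stood at 1013 and 1014 against 38.6 and 51.6 (4.47 ± 0.19). Ubx†, known for the haltere, was low but higher in wing, 5.26 and 8.04 against 0.396 and 0.301 (2.48 ± 0.27), whereas Scr was on the gland side, as given above. In the Notch and proneural list 22 of 25 were higher in wing and 0 in gland (median 3.21). The receptor gene N stood at 809.8 and 919 against 36.6 and 47.7 (4.33 ± 0.27). The secreted regulator sca† was at 54.8 and 55.8 against 1.24 and 1.5 (4.57 ± 0.32). Brd of the Bearded family was at 30.6 and 32.6 against 0.848 and 0.722 (4.19 ± 0.27). Of 14 planar polarity genes 11 were higher in wing and 0 in gland (median 3.83). The atypical cadherin gene ds† was at 920.5 and 942 against 34.3 and 43.1 (4.56 ± 0.27), and its partner ft at 532 and 679 against 19.6 and 33.3 (4.50 ± 0.35). The Golgi kinase gene fj, which acts on both, differed by 5.15 ± 0.21. The core polarity genes stan and pk† differed by 4.91 ± 0.15 and 4.93 ± 0.37. No library of gland reached a library of wing in any gene named here except Scr, where the order was the reverse. For N, sca and Brd the lack of overlap was a condition of being named.

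**Figure D3:**
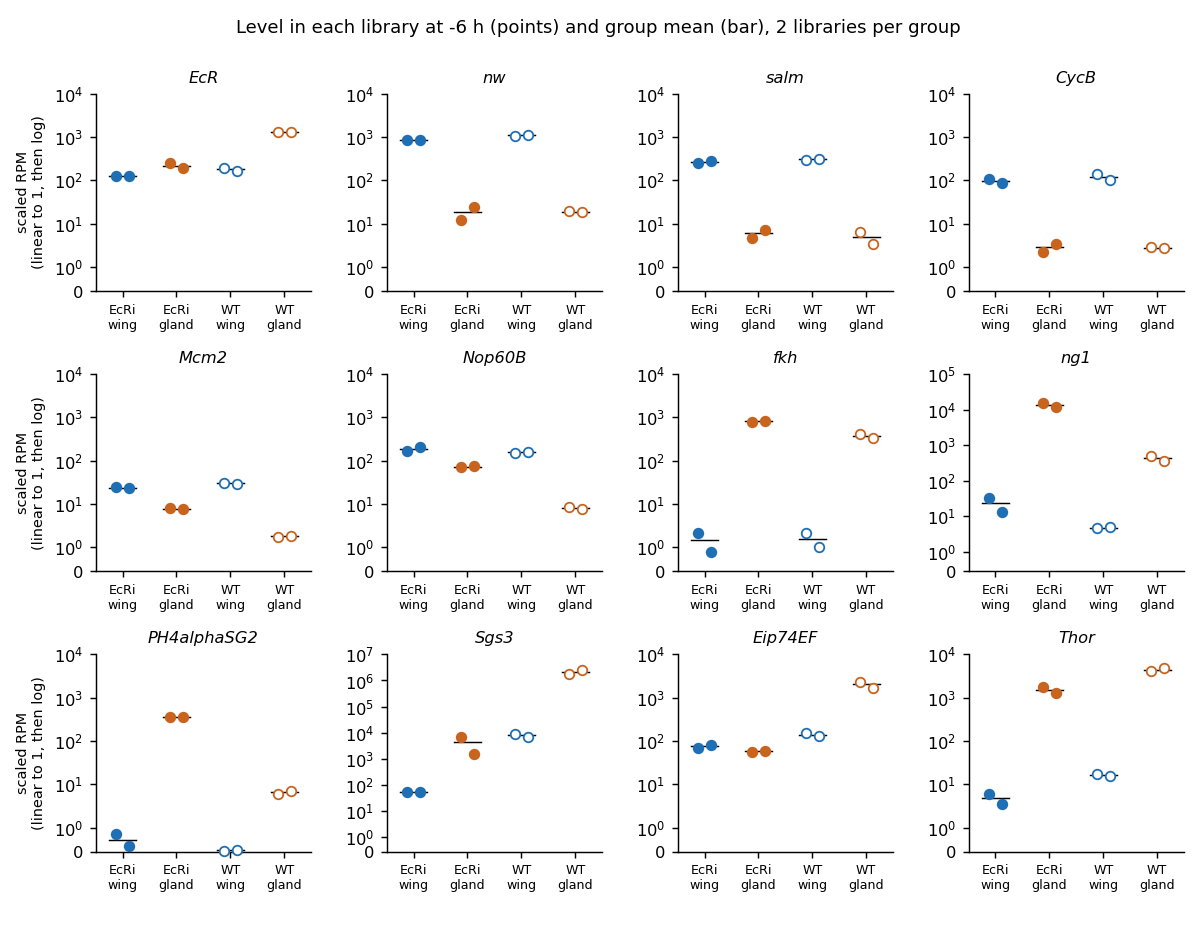
Level of 12 genes in each library at -6 h, in scaled RPM on an axis that is linear up to 1 and logarithmic above, with the upper limit differing for ng1 and Sgs3. Filled points are EcRi and open points WT, blue wing and orange gland, 2 libraries per group, and the bar is the group mean; nw, salm and CycB keep a similar tissue gap in both genotypes, while Eip74EF is near 57.9 in EcRi gland and near 2014 in WT gland.

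The cell cycle lists differed in how many members were called. For mitosis and cytokinesis 37 of 41 genes were higher in wing and 1 in gland, with a median of 3.27. CycB, the mitotic cyclin, was read at 108 and 88.8 in wing and 2.26 and 3.43 in gland (4.70 ± 0.27, adjusted p = 9.47e-09). Incenp of the chromosomal passenger complex was at 105 and 110.1 against 3.45 and 3.43 (4.61 ± 0.27). The spindle gene asp was at 96 and 95.2 against 2.04 and 3.55 (4.70 ± 0.55). The Cdc25 phosphatase gene stg, which triggers mitosis, was at 195 and 217 against 4.75 and 8.54 (4.80 ± 0.67). Lack of overlap between the tissues was a condition for naming genes of this list. For DNA replication, which polyploid gland cells also carry out in endocycles, 11 of 32 (34.4%, beside 15.6% of all genes) were higher in wing. None was higher in gland, and the median was 0.64. The helicase subunit gene Mcm2 stood at 24.2 and 23.2 in wing and 8.14 and 7.58 in gland (1.48 ± 0.30, adjusted p = 0.001). Mcm5 of the same complex stood at 26.8 and 24.7 in wing and 11.1 and 8.12 in gland (1.35 ± 0.20). The licensing inhibitor gene geminin differed by 1.39 ± 0.24. In both Mcm genes the wing libraries were the higher ones, again a condition of being named. The count of 11 fell to 7 without EcRi wing replicate 2 and to 0 with treat.

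Lists of growth and metabolism differed in the share of members called. For ribosome biogenesis 8 of 27 (29.6%, beside 15.6% of all genes) were higher in wing and 1 in gland (median 0.78). Nop60B†, the pseudouridine synthase of ribosomal RNA, was at 163 and 208 against 70.2 and 75.1 (1.33 ± 0.16). The box C/D protein gene nop5† was at 101 and 124 against 46.2 and 38.3 (1.39 ± 0.24). With no fold minimum the count was 15, and with treat 0. Of 71 mitochondrial ribosomal proteins 1 was higher in wing and 0 in gland (median 0.14), and of 84 cytosolic ones 1 and 0 (median -0.52). In the respiratory chain 17 of 68 (25%, beside 16.6% of all genes) were higher in gland, with 0 in wing and a median of -0.72. It was led by the cytochrome c gene Cyt-c-p (39.5 and 63.3 against 196 and 187, -1.92 ± 0.30) and the succinate dehydrogenase gene SdhD† (-1.52 ± 0.23). Counts were 42 with no fold minimum and 1 with treat. Of 17 aminoacyl-tRNA synthetases 4 (23.5%) were higher in gland and 0 in wing, a count of 11 with no fold minimum and 1 with treat, CysRS† with the largest difference of those that held with each library left out (-1.98 ± 0.20).

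Lists of the apical surface held wing-high genes in differing shares. Of 30 chitin and apical matrix genes 21 were higher in wing and 3 in gland (median 2.99). The chitin deacetylase gene Cda4 was at 209 and 237 against 5.43 and 10.4 (4.71 ± 0.67), and its relative verm differed by 4.12 ± 0.27. The zona pellucida protein gene neo was at 47.1 and 53.1 against 1.7 and 1.56 (4.28 ± 0.32). Of 54 cuticle protein genes tested, from 125 in the matrix, 21 (38.9%) were higher in wing and 2 in gland. TwdlT† of the Tweedle family was at 54 and 70.6 against 1.19 and 2.71 (4.46 ± 0.49). TwdlE† of the same family was at 40.0 and 40.2 against 0.509 and 1.68 (4.35 ± 0.44). The chitin-binding gene Cpr12A was at 55.4 and 47.7 against 1.87 and 2.71 (4.01 ± 0.37), while Cpr78Ca of that family was on the gland side, 0.111 and 0.142 against 18.7 and 20.6 (-4.20 ± 0.43). A low gene could pass the filter on low values through the tissue where it is high, so these counts do not describe the whole family. In the Osiris family, membrane proteins of cuticle-forming epithelia, 6 of 13 tested of 23 were higher in wing and 0 in gland, Osi2 at 22.2 and 23.4 against 0.622 and 0.241 (4.07 ± 0.43). That count was 3 without EcRi wing replicate 2 and 3 without EcRi gland replicate 1. Basement membrane genes went both ways, 7 of 21 (33.3%, beside 15.6% of all genes) higher in wing and 8 (38.1%, beside 16.6%) in gland. The gland count was lower without EcRi wing replicate 1, EcRi wing replicate 2 or EcRi gland replicate 2. The matrix protein gene Ppn was at 497 and 529 against 19.2 and 22.8 (4.55 ± 0.42). The metalloprotease gene Mmp2† was also higher in wing, 106 and 122 against 14.2 and 23.5 (2.57 ± 0.45). So were 2 small heat shock genes, Hsp67Ba† (4.48 ± 0.55) and Hsp27† (3.45 ± 0.42). Of 16 heat shock genes 3 (18.8%, near the 15.6% of all genes) were higher in wing and 0 in gland, with a median of -0.31.

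The regulators of the ecdysone cascade were compared between the tissues under EcRi. Of 14 cascade regulators 2 were higher in wing and 1 in gland, against 32.2% of all genes called in either direction, with a median of 0.39. Eip74EF, the early ETS factor, was read at 70.7 and 79 in wing and 56 and 59.9 in gland (0.36 ± 0.39, adjusted p = 0.493). The nuclear receptor gene Eip75B† overlapped between the tissues (233 and 275 against 264 and 222, 0.06 ± 0.18). So did the nuclear receptor genes Hr78† (47.7 and 41.5 against 54.5 and 37.2, -0.02 ± 0.27) and Hr4† (239.8 and 300.4 against 249 and 189.5, 0.30 ± 0.35). Eip78C†, another receptor of the family, was above gland in both wing libraries (33.2 and 31.9 against 14.9 and 14.2) but missed the call (1.11 ± 0.44, adjusted p = 0.0536). The transporter gene E23 stood at 39.6 and 53 against 21.8 and 24.8 (0.95 ± 0.55, adjusted p = 0.183). The late factor gene Eip93F stood at 3.07 and 5.17 against 2.32 and 2.83 with no call. The competence factor gene ftz-f1† stood at 28.3 and 37.6 against 72.5 and 53.3 (-0.91 ± 0.37, adjusted p = 0.0581). Hr39† (102 and 97.9 against 114 and 107), Hr3† (3.37 and 4.94 against 1.75 and 3.01) and Kr-h1† (46.2 and 36.6 against 32.4 and 28.8) also had no call. Blimp-1, a transcriptional repressor induced by ecdysone, was higher in wing at 95.7 and 91.4 against 10.2 and 7.64 (3.26 ± 0.37, adjusted p = 5.98e-06). br†, the Broad complex gene, stood at 6169 and 7093 in wing and 2449 and 2455 in gland (1.43 ± 0.49, adjusted p = 0.0269), a call lost without any single one of the 4 libraries (1.33 to 1.53, adjusted p = 0.0718 to 0.118). Hr38† was low and higher in gland, 0.259 and 0.312 against 3.17 and 3.61 (-1.77 ± 0.29).

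Genes named for induction by ecdysone were divided by tissue. Of 12 such genes 5 (41.7%, beside 15.6% of all genes) were higher in wing and 4 (33.3%, beside 16.6%) in gland. A gland call was lost without EcRi wing replicate 1. The list includes the fat body gene Fbp1, whose levels are given above, and the part of fat body in the gland count was not tested. The imaginal disc gene ImpE1 was at 319 and 456 against 7.01 and 16.9 (4.996 ± 0.59). ImpE3† was at 105 and 110.4 against 4.92 and 6.44 (4.03 ± 0.44), and ImpL1 at 14.5 and 33.9 against 0.622 and 2.05 (3.39 ± 0.69). The cuticle gene Edg78E was at 7.41 and 18.5 against 0.113 and 0.18 (3.48 ± 0.29), so that all 4 were higher in wing without overlap. ImpE2 was read in both, 1567 and 1678 in wing and 956 and 649 in gland (1.04 ± 0.31, adjusted p = 0.0124), a call lost on leaving out single libraries: 0.99 with adjusted p = 0.0656 without EcRi wing replicate 2 and 0.76 with adjusted p = 0.127 without EcRi gland replicate 2. Eip63F-1†, a gene for a calcium-binding EF-hand protein, was on the gland side at 0.815 and 0.653 against 189 and 186 (-6.77 ± 0.21, adjusted p = 7.92e-11). Eip55E, an enzyme gene of sulphur amino acid metabolism, was on the same side at 40.7 and 39.9 against 148 and 107 (-1.62 ± 0.16). The hormone importer gene Oatp74D† was higher in gland, 71.5 and 72.3 against 181 and 184 (-1.33 ± 0.19). The ecdysone-clearing enzyme gene Cyp18a1 was higher in wing, 3.7 and 5.65 against 0.113 and 0.361 (2.18 ± 0.38). Of the 11 late puff genes of region 71E 2 (18.2%) were higher in gland, near the 16.6% of all genes. Eig71Ee was at 5.41 and 1.82 against 1562 and 545 (-7.76 ± 1.43), and Eig71Ej at 0 and 0.17 against 22.9 and 8.84 (-3.83 ± 0.63), both higher in gland replicate 1 than in replicate 2, the order of the Sgs genes.

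Some timing and death genes differed between the tissues as well. chinmo, the factor of early larval stages, was at 48.4 and 50.5 in wing and 647 and 626 in gland (-3.66 ± 0.24, adjusted p = 3.59e-08). The let-7 cluster transcript lncRNA:let7C† was higher in wing, 13.3 and 12.9 against 0.509 and 1.68 (2.81 ± 0.38). The RNA-binding regulator gene Syp† was also higher in wing, 2013 and 1934 against 406 and 478 (2.16 ± 0.17), and Imp†, its counterpart in neural timing, was not called (447 and 497 against 303 and 392, 0.45 ± 0.25). The juvenile hormone receptor gene gce† was higher in gland, 0.593 and 0.312 against 73.8 and 62.5 (-5.57 ± 0.40), while its paralog Met was not called (25.9 and 22.6 against 43 and 31.2, -0.58 ± 0.44). In the cell death list 4 of 13 (30.8%, beside 15.6% of all genes) were higher in wing and 4 (30.8%, beside 16.6%) in gland. The gland count was lower without EcRi wing replicate 1. hid, a death activator, stood at 228 and 237 in wing and 4.13 and 8.36 in gland (5.08 ± 0.25, adjusted p = 2.13e-09). The activator rpr was at 17.8 and 18.6 against 5.71 and 5.42 (1.55 ± 0.38). The caspase gene Dcp-1† was at 53.9 and 61 against 5.31 and 7.1 (3.03 ± 0.52), and Dronc, the initiator caspase, differed by 1.78 ± 0.33. The caspase gene Strica† was higher in gland, 5.45 and 8.69 against 77.5 and 83.4 (-3.36 ± 0.23), as was Buffy† of the Bcl-2 family at a low level, 0 and 0.0568 against 2.71 and 1.87 (-1.67 ± 0.30).

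A second comparison asked where the tissue difference under EcRi departed from that of WT tissue of the same stage. The EcRi difference minus the WT difference was called for 2209 genes (21.7%), 853 (8.38%) positive and 1356 (13.3%) negative, with a median of -0.14 over all genes. A positive value means that wing minus gland was larger in EcRi than in WT. With median-of-ratios size factors, 1047 were positive and 1100 negative with a median of 0.00, and with voom weights it was 645 and 616. Of the 1584 wing-high genes 345 and of the 1692 gland-high genes 608 had such a call, beside 2209 of 10176 (21.7%) over all genes tested. These genes were called on EcRi values that also enter this difference, so the counts are not independent of that choice. WT gland reads were 68.7% and 74.8% Sgs genes, so a single read weighs more scaled RPM there than in EcRi gland. Per the labels WT animals carried none of the transgenes, so the effects of the line and of the knockdown cannot be told apart.

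Growth and replication genes were among the negative values in number. For DNA replication the value was negative for 21 of 32 (65.6%, beside 13.3% of all genes) and positive for 0 (median -1.66). WT had 27 of the 32 higher in wing where EcRi had 11. Mcm2 was read at 31.3 and 28.4 in WT wing and 1.75 and 1.84 in WT gland, and at 24.2 and 23.2 in EcRi wing and 8.14 and 7.58 in EcRi gland (-1.99 ± 0.42, adjusted p = 0.00327). The wing libraries of both genotypes lay close, and the EcRi gland libraries stood above both WT gland libraries. With voom weights the count was 6 and with treat 4. For ribosome biogenesis it was 22 of 27 (81.5%) negative and 0 positive (median -2.17). Nop60B stood at 151 and 158 in WT wing and 8.32 and 7.59 in WT gland, and at 163 and 208 in EcRi wing and 70.2 and 75.1 in EcRi gland (-2.79 ± 0.23, adjusted p = 1.46e-06), where both EcRi gland libraries again lay above both WT gland libraries. For nop5 the value was -2.78 ± 0.35, and for Myc†, a transcription factor gene that promotes growth, at 27.4 and 24.8 in WT gland and 146 and 169 in EcRi gland, -2.09 ± 0.34. Of 71 mitochondrial ribosomal proteins 26 (36.6%, beside 13.3% of all genes) were negative and 0 positive (median -1.35). The first count was 17 with a pseudocount of 4, 5 with treat, 41 in a fit of the compared libraries alone and 48 with array weights. That count was 14 without WT wing replicate 1, 14 without EcRi gland replicate 1, 17 without EcRi wing replicate 1 or 2 or WT gland replicate 1, and 7 with voom. Of 17 aminoacyl-tRNA synthetases 11 (64.7%) were negative and 0 positive, and the first count was 6 with voom and 2 with treat.

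**Figure D4:**
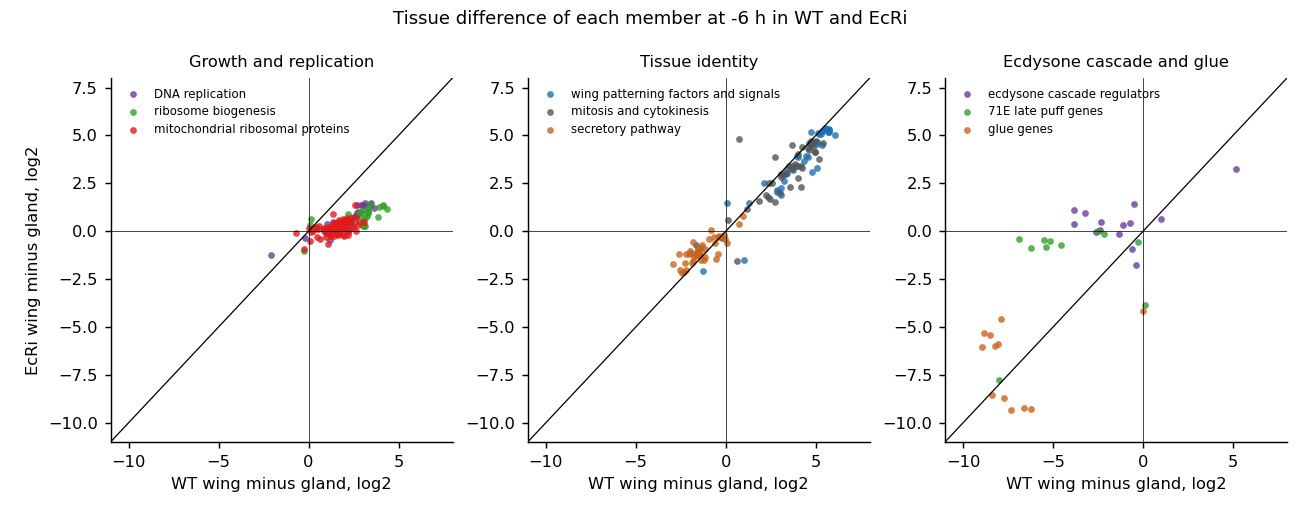
Wing minus gland difference in log2(scaled RPM + 1) at -6 h in WT (horizontal) and EcRi (vertical) for every tested member of 9 lists, with the line of equality. Members of the DNA replication, ribosome biogenesis and mitochondrial ribosomal lists lie mostly below the line at WT values above 0. Their EcRi medians are 0.64, 0.78 and 0.14. Wing patterning and mitosis genes lie nearer the line but mostly below it (35 of 43 and 33 of 41), and 10 of 14 cascade regulators lie above it.

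Of 14 cascade regulators 7 had positive values (50%, beside 8.38% of all genes), 2 had negative ones and 5 were not called, with a median of 1.67. The negative ones were Hr38 and Blimp-1, and neither call held with each library left out. Nor did the positive call of Kr-h1, whose value was 0.995 without EcRi wing replicate 1. In WT 7 of the 14 regulators were higher in gland and 1 in wing. Eip74EF was at 151 and 129 in WT wing and 2333 and 1696 in WT gland (4.19 ± 0.54, adjusted p = 7.45e-05). E23 was at 14.7 and 30.6 in WT wing and 212 and 195 in WT gland (4.15 ± 0.78). Eip78C was at 55.3 and 57.2 in WT wing and 773 and 835 in WT gland (4.92 ± 0.62). In each of these 3 genes the WT gland libraries were the highest of the 8 libraries. Eip75B (2.48 ± 0.26), Hr78 (2.57 ± 0.39) and Eip93F (2.82 ± 0.64) were positive as well. ImpE2 went the other way, at 3254 and 3834 in WT wing and 51.4 and 63.7 in WT gland beside the EcRi levels given above (-4.88 ± 0.43, adjusted p = 2.91e-06), with WT wing high and WT gland low. The nuclear receptor gene Hnf4†, at 107 and 106 in WT gland and 28.2 and 23.4 in EcRi gland, had 2.003 ± 0.22.

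Genes of the gland lists had values of both signs. PH4alphaSG2, at 5.91 and 7.13 in WT gland and 359 and 360.1 in EcRi gland, had -5.12 ± 0.46. Papss, at 23.2 and 33.3 in WT gland and 178 and 189.6 in EcRi gland, had -3.16 ± 0.34. ng1 had -3.08 ± 0.65, with 488 and 364 in WT gland and 15378 and 11952 in EcRi gland, so the EcRi gland libraries were the higher ones in these 3 genes. sage was positive (2.08 ± 0.51), with 774 and 567 in WT gland and 116 and 81.7 in EcRi gland. No Sgs gene was called, although Sgs3 stood at 1789180.4 and 2561002 in WT gland and 9321 and 6700.4 in WT wing: both WT tissues were higher than their EcRi counterparts, and the value was 2.21 ± 1.87 (adjusted p = 0.455). GstD2 was negative (-6.38 ± 0.55), at 0.657 and 0.69 in WT gland and 242 and 188 in EcRi gland, as were GstD1 (-3.65 ± 0.46), upd3 (-3.68 ± 0.40) and FASN1 (-3.81 ± 0.49). The Cdc25 gene stg was positive (4.08 ± 0.95), at 237 and 181 in WT wing and 95.6 and 163 in WT gland, where the EcRi gland libraries were the lowest of the 8. The polarity gene stan, at 85.8 and 101 in WT gland and 5.37 and 7.46 in EcRi gland, had 2.97 ± 0.21. hid, at 22.1 and 28.3 in WT gland and 4.13 and 8.36 in EcRi gland, had 2.31 ± 0.36, and Mmp2 had 3.35 ± 0.64, each with WT gland above EcRi gland.

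Lastly the tissue difference of the EcRi libraries was set against that at -30 h, to see where it changed as the animals reached the wandering stage. The value at -6 h minus that at -30 h was called for 375 genes (3.69%), 224 (2.2%) positive and 151 (1.48%) negative. This count depends on the fit: it was 739 in a fit of the compared libraries alone and 47 with treat. Among the wing libraries, it was 190 and 193 without the first and second replicate at -30 h, and 229 and 169 without those at -6 h. It was 200 without EcRi gland -6 h replicate 2. The balance of signs also depended on a library and on scaling: it was 145 positive and 193 negative without EcRi gland -30 h replicate 1, and 175 and 168 with TMM factors computed without glue and 71E genes. Hr4 had the largest positive value among abundant genes whose call held with each library left out. It was read at 5.05 and 4.63 in wing and 311 and 459 in gland at -30 h, and at 239.8 and 300.4 in wing and 249 and 189.5 in gland at -6 h (6.32 ± 0.49, adjusted p = 1.58e-05). Wing was far below gland at -30 h, and the tissues overlapped at -6 h. Blimp-1 was at 0.842 and 0.988 in wing and 0.8 and 1.15 in gland at -30 h, level between the tissues, against a wing excess at -6 h (3.30 ± 0.53). ImpE2 went from 89.6 and 73.2 in wing and 446 and 349 in gland to 1567 and 1678 in wing and 956 and 649 in gland (3.31 ± 0.43), with gland above wing at -30 h and wing above gland at -6 h.

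**Figure D5:**
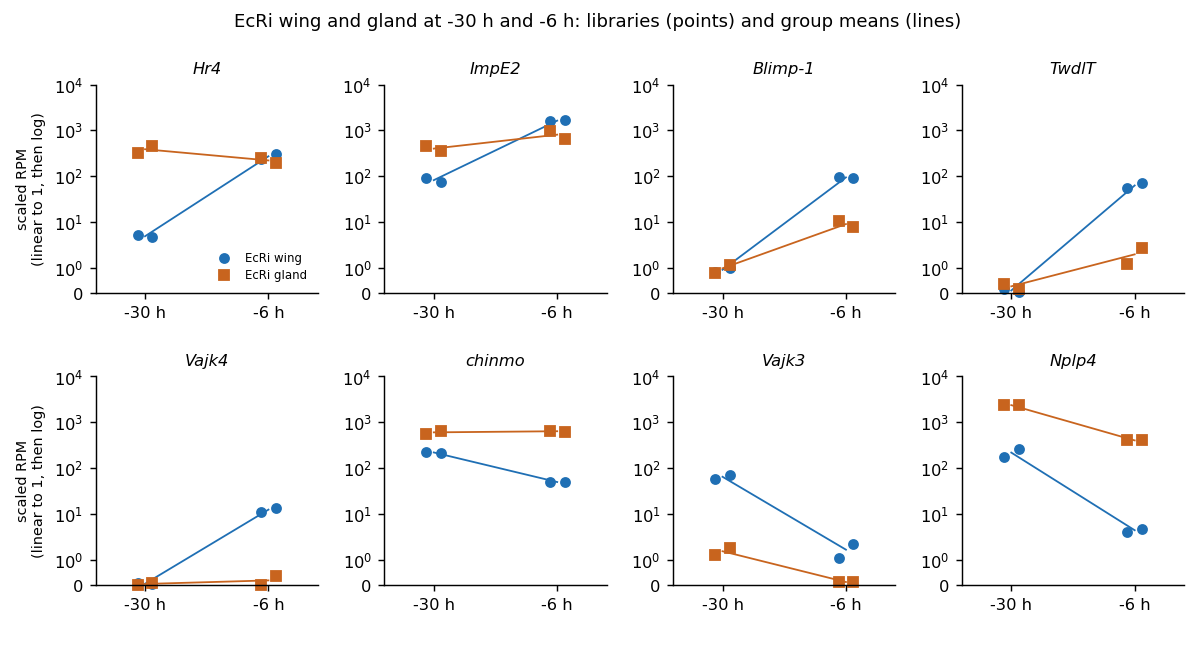
Level of 8 genes in EcRi wing (blue circles) and EcRi gland (orange squares) at -30 h and -6 h, in scaled RPM on an axis linear up to 1 and logarithmic above; points are the 2 libraries of a group and lines join group means. In the upper row and Vajk4 the wing gains on the gland between the times, and in chinmo, Vajk3 and Nplp4 the wing loses.

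TwdlT was near 0 in both tissues at -30 h (0.168 and 0.0341 in wing, 0.364 and 0.164 in gland) and high in wing at -6 h (4.66 ± 0.70). In all, 10 of 54 cuticle genes (18.5%, beside 2.2% of all genes) had positive and 2 (3.7%, beside 1.48%) negative values. The first count was 3 with voom and 18 with array weights. A low gene could pass the filter through the group where it is high, so these counts do not describe the whole family. Vajk4, of a family of cuticle-associated proteins, was at 0.0673 and 0.0341 in wing and 0 and 0.0819 in gland at -30 h, and at 11 and 13.6 in wing and 0 and 0.361 in gland at -6 h (3.49 ± 0.61). Vajk3† of that family was at 57.9 and 70.8 in wing and 1.24 and 1.8 in gland at -30 h, and at 1.07 and 2.22 in wing and 0.113 and 0.12 in gland at -6 h (-3.49 ± 0.45). Nplp4, a neuropeptide-like precursor, was at 174 and 260.3 in wing and 2369 and 2361 in gland at -30 h, and at 4 and 4.74 in wing and 401 and 402 in gland at -6 h (-2.76 ± 0.49). For Vajk3 both tissues were lower at -6 h and wing lost more, and for Nplp4 gland stayed above wing at both times. chinmo, at 225 and 212 in wing and 553 and 649 in gland at -30 h, had -2.21 ± 0.35, with the gland libraries at both times above the wing libraries. Secretory genes were positive for 6 of 44 (13.6%, beside 2.2% of all genes) and negative for 0, with p24-1 at 1.47 ± 0.23. Without single libraries that count was 3 (EcRi wing -30 h replicate 1), 2 (EcRi gland -30 h replicate 2), 3 (EcRi wing -6 h replicate 2) and 3 (EcRi gland -6 h replicate 2). At -30 h 36 of the 44 were higher in gland, beside 28 at -6 h.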

How the data were processed

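Tools listed, without their roles, are STAR 2.7.3a, SAMtools 1.9 and DESeq2, and the build is dm6, per the submitters' processing notes. Per the labels' protocols, total RNA was turned into libraries with a Tecan Universal RNA-Seq kit for Drosophila. The authors deposited 1 matrix of 20 libraries whose values, though named as counts, are RPKM relative to the gene span with introns (tested on the values). Each gene's values step by what 1 read is worth, and dividing by that step recovered whole reads. Among 62117 values of 20 reads or fewer, 62097 (99.97%) were whole to a tolerance of 0.1. The deposited tables of the authors' own comparisons were not used here, and no column was left unassigned. Symbols were matched to Ensembl 115 (BDGP6) for 16618 of 17606 genes, and 754 more through synonyms.

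Reads were scaled to RPM with TMM factors (trims of 30% for ratios and 5% for levels). Values of log2(scaled RPM + 1) were fitted with limma 3.58.1 in R 4.3.3, with 1 mean per group over all 20 libraries and moderated variances (trend and robust, 10 residual degrees of freedom, with 3.42 prior ones at the median). A count model was not used as the main test because the deposited unit is RPKM. A gene was tested when 2 or more libraries reached 0.559 scaled RPM (10 reads in a library of median depth) and all libraries together held 15 reads, which gave 10176 genes. A call needed p under 0.05 after Benjamini-Hochberg adjustment and at least a 2-fold difference. The median standard error was 0.29 for comparisons and 0.41 for interactions. In reads simulated at this depth, over 9494 genes, the main comparison called 34 of 100 genes with a 2-fold change and 100 of 100 with a 4-fold change. It gave no call of the wrong sign and called 7 unchanged genes. Whether these numbers hold at the uneven spread of the real libraries was not tested. Between the 2 libraries of a group, 46 genes differed over 2-fold in EcRi wing at -30 h and 3589 in WT gland at -30 h. At -6 h it was 106 in EcRi wing and 196 in EcRi gland. Since a call needs an estimate of at least 2-fold, the share for 2-fold changes is limited at any number of libraries. At 3 reads a level is 0.0852 to 0.181 scaled RPM in the 4 EcRi libraries at -6 h, and lower values rest on fewer reads than that. Figures used Python 3.11.15, pandas 2.3.3 and matplotlib 3.10.9.

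The comparisons were EcRi wing against gland at -6 h, the same in WT at -6 h and in EcRi at -30 h, and the differences of the first from each. The members and the 44 gene lists were chosen with earlier results of these data known, so list counts are descriptions and no list test was run. Genes were named by a rule. It took EcR, usp, w and members of lists of up to 14 genes. Of longer lists it took up to 4 called members with the largest difference and at least 5 scaled RPM. It also took the 12 largest in each direction from 100 scaled RPM. Genes from longer lists and these largest genes needed a call that held with each of the 4 libraries left out. They also needed levels without overlap between the tissues. For the differences of differences it took the 8 largest of each sign from 50 scaled RPM. Their calls had to hold with each library of the contrast left out. Lsp2, a marker, is named in addition. Alternatives were other scalings, filters, pseudocounts, log2(RPKM + 0.1), voom, a fit of the compared libraries, no fold minimum, fits with a replicate block and fits without each library. Array weights, limma treat and leaving out WT gland -30 h replicate 2 throughout were chosen after the data were seen. The labels pair no libraries and name no batch.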

Additional observations from a re-analysis of the deposited data

Results flagged for a closer look

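Genes whose tissue difference differed most between genotypes or between times are given here, the 8 largest of each sign for each, 32 in all. They were taken from abundant genes called by limma's test of the difference of differences, with a call that held when each library was left out. The number 32 is set by that choice: 2209 genes were called between genotypes and 375 between times. Of the 8 with the largest positive value between genotypes (EcRi minus WT), PGRP-SB2, a peptidoglycan recognition gene, had 7.39: it was read at 1.77 and 15 in WT wing and 913 and 3532 in WT gland, and at 0.259 and 0.597 in EcRi wing and 0.735 and 1.99 in EcRi gland. The lysozyme gene LysP had 6.77, with 623 and 808 in WT gland and 1.3 and 1.62 in EcRi gland. The other values were 6.98 for CG42717, 6.65 for CG42798, 6.61 for CG45081, 6.54 for the transporter gene MFS9, 6.30 for SmydA-9 and 6.16 for lncRNA:CR43301.

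The largest negative value between genotypes was -8.74 for CG42759, at 0 and 0.69 in WT gland and 1837 and 559.9 in EcRi gland. CG32071 had -7.93, with 0.219 and 0.23 in WT gland and 284 and 449 in EcRi gland. The others were -7.55 for CG34278, -7.46 for CG13445, -6.89 for CG14143, -6.87 for CG34273, -6.38 for the glutathione transferase gene GstD2 and -6.22 for CG2157. In CG42759 and CG32071 both EcRi gland libraries lay above both WT gland libraries.

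Between times in EcRi (-6 h minus -30 h), Hr4 had 6.32, CG4928 4.85 and TwdlT 4.66. CG4928 was read at 6.6 and 7.66 in wing and 576 and 419 in gland at -30 h, and at 115 and 125 in wing and 329.8 and 193 in gland at -6 h. The other positive values were 4.38 for CG34355, 4.36 for the serpin gene Spn100A, 4.24 for CG5758, 4.06 for the elongation factor gene eEF1alpha2 and 3.91 for CG11835. Negative values were -5.68 for CG34296, -3.80 for CG2157, -3.49 for Vajk3, -3.35 for Ama, an immunoglobulin adhesion gene, -2.99 for CG9336, -2.76 for Nplp4, -2.59 for the amino acid transporter gene NAAT1 and -2.57 for rgn. CG34296 was read at 0 and 0 in wing and 0.0727 and 0 in gland at -30 h, and at 0.037 and 0 in wing and 38.8 and 72.3 in gland at -6 h.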

How the results depend on the processing

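No named gene changed sign with a call under the alternatives run, and 7804 repeats of the differences of named genes kept their direction and side of the threshold, while 541 fell below it and 69 rose above it. EcRi wing against gland at -6 h gave 2492 to 4667 genes under alternatives other than treat, which gave 1753, and 2938 to 3085 with a library left out. Treat gave 749 genes for the difference between genotypes, 47 for that between times, 2805 for WT and 1719 for EcRi at -30 h. Voom gave 1261 for the difference between genotypes and 170 for that between times. That between times was also 238 with a pseudocount of 0.25, 230 with log2(RPKM + 0.1), 739 in a fit of the compared libraries, 822 with array weights, 716 without WT gland -30 h replicate 2, and 169 to 338 with a library left out. Its cause was not tested. In the ranges with a library left out, that library was of a compared group. Counts without WT gland -30 h replicate 2, a library outside the compared groups, lay above these ranges in every comparison. Ranges with a library left out were 1789 to 2036 for the difference between genotypes, 4126 to 4328 for WT and 3009 to 3359 for EcRi at -30 h. The balance of higher and lower calls turned in some: between times from 224 positive and 151 negative to 145 and 193 without EcRi gland -30 h replicate 1; in EcRi at -30 h from 1543 and 1833 to 1793 and 1621 with TMM without glue and 71E genes, to 1750 and 1609 without EcRi gland -30 h replicate 1 and to 1590 and 1483 without replicate 2; in WT from 2575 and 1948 to 2183 and 2304 with voom; and between genotypes from 853 and 1356 to 645 and 616 with voom. For EcRi wing against gland at -6 h it turned with no fold minimum, at 2365 and 2302.

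Replicate numbers were shared across groups, and the labels do not say what they mark. Same-numbered deviations correlated at 0.36 for EcRi wing and gland at -6 h. Over all 45 pairs of groups the correlation ran from -0.04 to 0.43, above 0 in 42 and above 0.1 in 30, a hint from the data and not from the design. With the replicate block the counts were 3298, 2291 between genotypes, 388 between times, 4543 in WT and 3401 at -30 h.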
